A study of Homo sapiens with 12 samples.

Results

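The accessible regions described here lie far from gene starts and were found in DU-145 but not in BT-549 cells. The DU-145 line comes from a human prostate cancer and stands for castration-resistant disease (CRPC), and BT-549 comes from a triple-negative breast cancer (TNBC). A region of the DU-145 table was included if it was on an autosome, if each of its 100-bp bins was more than 3 kb from any GENCODE v44 transcription start site (TSS), if none of its bins was in the BT-549 table, and if it overlapped no peak of any of the 6 BT-549 libraries. By these criteria, 24061 of the 79177 accessible regions (30.4%) and 145550 bins were DU-145-specific distal regions, and all 24061 entered the tests below. The members were therefore selected on measured accessibility in both lines, and their presence in DU-145 and absence from BT-549 are not findings. The difference between vehicle and DOX in DU-145 was not part of the selection, other than through the requirement that a region of the table had a peak in at least 3 of the 6 DU-145 libraries of either condition.

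Cells of every group, vehicle included, carried tet-MUC1shRNA, a hairpin against MUC1 under tetracycline control. The cells were grown for a week with vehicle (0.1% DMSO) or with doxycycline (DOX), which induces the hairpin, and accessibility was measured by ATAC-seq in 3 replicates per line and condition, 12 libraries in all. No cells with a control hairpin were analysed here, so that silencing of MUC1 and DOX itself cannot be told apart. The paper calls the replicates biologically independent. MUC1 RNA was not measured in these files, and for the silencing the paper refers to immunoblots of both lines. At the MUC1 promoter, normalised coverage was 196, 174 and 153 in the vehicle and 128, 123 and 104 in the DOX libraries (log2 fold change -0.56, SE 0.12, adjusted p = 0.00011, edgeR). Regions within 3 kb of a TSS had a median change of -0.23 (quartiles -0.53 and 0.28), and the promoter value is no measure of silencing.

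In ATAC-seq, the Tn5 transposase cuts open chromatin, and the fragments that cover a site measure how accessible it is. Accessible sites away from promoters are mostly enhancers and insulators. Enhancers carry clustered binding sites for transcription factors, differ between cell types far more than promoters do, and can act on genes over long distances. The gene with the nearest TSS, by which regions are named here, is therefore a label and not a measured target. AP-1, a dimer of JUN and FOS family proteins, is a frequent occupant of enhancers in epithelial cancer cells. In a pool of cells, fewer cells with a site open and a lower accessibility per cell cannot be told apart.

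The sequences below are from the bins with the largest changes and the highest coverage, since the contents of these windows recur in the results on short sequences. Each is the highest bin of the region with 50 bp on both sides, from GRCh38, forward strand, 5′ to 3′. The capitals mark matches to the searched sequences for AP-1 (TGACTCA), ETS factors (AGGAAGT), NRF2-type elements (TGACNNNGC), FOX factors (TGTTTAC), members of the GATA family (AGATAA), C/EBP (TTGCNNAA), NKX2 factors (CACTTNA), ZEB-type E-boxes (CACCTG) and hormone receptor half-sites (AGAACA), on either strand.
Opening, nearest EFNA5, chr5:107092751-107092950, with ETS and AP-1: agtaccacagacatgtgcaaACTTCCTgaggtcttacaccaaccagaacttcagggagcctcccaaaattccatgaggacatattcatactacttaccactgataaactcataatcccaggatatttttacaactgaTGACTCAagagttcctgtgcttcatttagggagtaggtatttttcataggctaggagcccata
Opening, nearest SLC35F4, chr14:57930551-57930750, with GATA, half-site and E-box: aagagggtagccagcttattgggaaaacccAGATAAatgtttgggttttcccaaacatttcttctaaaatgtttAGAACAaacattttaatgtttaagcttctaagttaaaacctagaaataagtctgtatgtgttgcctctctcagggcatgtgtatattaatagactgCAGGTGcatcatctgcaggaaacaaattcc
Opening, nearest EBF1, chr5:158390651-158390850, with NRF2-type, ETS and AP-1: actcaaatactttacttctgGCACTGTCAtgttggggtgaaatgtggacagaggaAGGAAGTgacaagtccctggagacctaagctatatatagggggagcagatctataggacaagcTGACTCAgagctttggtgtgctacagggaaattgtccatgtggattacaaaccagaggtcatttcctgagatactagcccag
Closing, nearest GALNT3, chr2:165825151-165825350, with a half-site: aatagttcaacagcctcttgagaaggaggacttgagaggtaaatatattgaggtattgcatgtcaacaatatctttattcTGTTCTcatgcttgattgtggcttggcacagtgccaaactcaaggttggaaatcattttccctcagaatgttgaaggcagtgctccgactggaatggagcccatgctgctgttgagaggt
Closing, nearest PDHX, chr11:35045551-35045750, with E-box and FOX: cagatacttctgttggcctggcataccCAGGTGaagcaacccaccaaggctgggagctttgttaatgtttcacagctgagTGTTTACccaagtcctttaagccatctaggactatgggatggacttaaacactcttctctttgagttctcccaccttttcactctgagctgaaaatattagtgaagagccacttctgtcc
Highest coverage, nearest ARHGAP5, chr14:31992151-31992350, with C/EBP, ETS and NKX2: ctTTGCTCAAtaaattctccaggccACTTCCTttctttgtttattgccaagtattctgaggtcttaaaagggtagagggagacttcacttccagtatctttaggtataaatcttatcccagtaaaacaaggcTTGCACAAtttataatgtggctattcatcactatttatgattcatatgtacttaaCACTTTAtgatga

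The DU-145-specific distal regions were shorter and weaker than the distal shared regions and those near TSSs, and much like the other distal regions without a bin in the BT-549 table. Their median length was 500 bp, against 800 bp in the 12584 distal autosomal regions that also had a bin in the BT-549 table (distal shared regions) and 1000 bp in the 31671 regions within 3 kb of a TSS. Coverage was read from the highest bin of each region, in fragments per base, normalised to the mean library of the line. The median was 14.3 in the members, 25.7 in the distal shared regions and 33.2 near TSSs. The 9302 distal regions with a BT-549 peak but no bin in the BT-549 table had a median length of 600 bp and a median coverage of 15.2. The members had a median GC content of 46% and lay at a median of 14203 bp from the nearest TSS. Introns of protein-coding genes held 11792 of them (49.0%), intergenic sequence 8412 (35%), introns of other genes 3059 (12.7%) and exons 798 (3.32%). The nearest BT-549 peak was a median of 9233 bp away.

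The library totals of the DU-145 table ranged from 12370094 to 25232000, and these libraries had 63271 to 95487 peaks. The second vehicle library was the deepest of its group (24001285) and is the library whose omission lowered the opening calls most, as given beside the counts below. The BT-549 DOX libraries had 30450 to 39837 peaks, against 65204 to 93929 in the BT-549 vehicle libraries. The number of regions that count as absent from BT-549 depends on these lists: of 9302 distal DU-145 regions that had no bin in the BT-549 table but a BT-549 peak, and were not included, 4550 had that peak in 1 BT-549 library. As a check on the labels, the promoters of 8 of 8 epithelial junction genes had a bin in the DU-145 table within 1 kb of a TSS, against 6 of 8 in the BT-549 table, where CDH1 and EPCAM were absent. Of 5 prostate luminal genes, DU-145 had 2, and KLK3 and HOXB13 were among those absent. Of 6 mesenchymal genes, DU-145 lacked CDH2 and TWIST1 and BT-549 had all.

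The limits of the selection fell among regions of varied levels. The members nearest to the 3-kb limit, at 3001 bp from a TSS, were regions near DMXL2 (mean coverage 18.7 in vehicle and 58.0 in DOX) and BAAT (8.08 and 7.69). Regions near IGSF9B (21.7 and 6.45) and LASP1 (123 and 105) were at 3000 bp and fell outside. The members nearest to a BT-549 peak, near MTX2 (6.31 and 16.7) and KCNJ2 (0.975 and 8.02), lay 1 and 2 bp from it.

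The share of the DU-145 accessibility signal in these regions was larger after DOX, in part through the way regions entered the table. The members held 9.29%, 9.33% and 9.46% of the summed coverage of the 3 vehicle libraries and 12.7%, 11.7% and 12% of that of the DOX libraries, with means of 9.36% ± 0.0854 and 12.1% ± 0.529 (SD, n = 3 each). Many members had a peak in DOX libraries alone, as counted below, so that these values are given without a test. Members with a peak in all 6 libraries held 7.15%, 7.17% and 7.31% in vehicle and 8.58%, 8.01% and 8.15% in DOX, and the conditions did not overlap (two-sided exact permutation p = 0.1, which is the lowest that 3 against 3 can reach). The distal shared regions also took a larger share after DOX, with means of 12.4% ± 0.177 and 14.7% ± 0.246.

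Relative to the distal shared regions, the gain depended on that restriction. Over all members, the mean bin coverage on the log2 scale was -0.78, -0.80 and -0.79 in vehicle and -0.62, -0.70 and -0.66 in DOX relative to them. With members and distal shared regions both restricted to a peak in all 6 libraries, the ratio was -0.39, -0.41 and -0.40 in vehicle and -0.37, -0.43 and -0.41 in DOX, and the conditions overlapped (exact permutation p = 0.9).

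**Figure D1:**
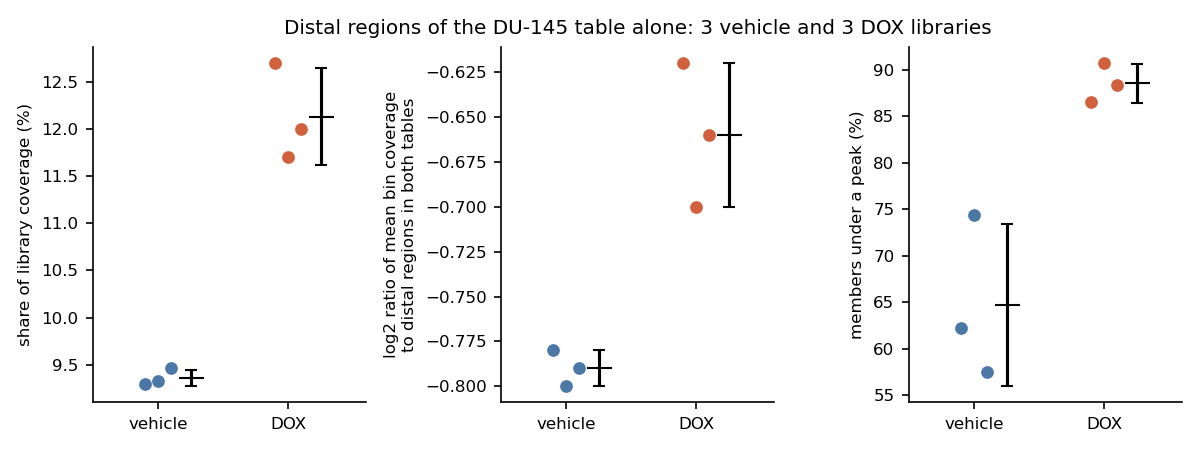
Values of each DU-145 library for the DU-145-specific distal regions, with vehicle in blue, DOX in orange and mean ± SD (n = 3) in black. The panels give the percent of summed library coverage, the log2 ratio of mean bin coverage to the distal shared regions, and the percent of members under a peak. Vehicle and DOX libraries do not overlap in any panel, with 9.29% to 9.46% against 11.7% to 12.7% in the first, and all members are included, also those with a peak in DOX libraries alone.

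Peaks covered 62.2%, 74.4% and 57.5% of the members in vehicle and 86.5%, 90.7% and 88.4% in DOX libraries. The same peaks decided which regions were in the table, and these shares are a description of that entry with no test: 11003 members had a peak in more DOX than vehicle libraries and 3147 in more vehicle than DOX libraries. Depth also differed between the libraries, and its part in the shares was not tested. The median fold enrichment of the peaks in members was 10.3 to 10.6 in vehicle and 10.5 to 11.1 in DOX.

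DOX changed the members in both directions, and more opened than closed in the edgeR fit used here. A region was called opening or closing by its highest bin, if that bin changed at least 2-fold with an adjusted p below 1e-05 (edgeR quasi-likelihood test, Benjamini-Hochberg over all tested bins). By this rule 3581 members (14.9%) opened and 1653 (6.87%) closed, against 9.35% opening and 4.27% closing over all regions of the table. Among the distal shared regions 9.72% opened and 3.26% closed, and near TSSs 5.19% and 2.87%. The median log2 fold change of the members was 0.39 (quartiles -0.34 and 1.34), against -0.00 over all regions and 0.07 in the distal shared regions. The opening members had a median change of 2.39 and the closing members of -2.29.

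The balance between opening and closing depended on the processing. Opening made up 68.4% of the called members (68.7% over all regions), 52.9% with the trend with GC content removed from each library (2517 opening, 2238 closing), 52.9% with DESeq2 (876 and 781) and 56.1% without the second vehicle library (1676 and 1314). Over all regions the share moved alike, to 53.7% with the GC trend removed, 54.9% with DESeq2 and 56.6% without that library. The paper used DESeq2 with the same limits and reported slightly more increases than decreases of accessibility in DU-145. GC content moved with the change: opening members were 17.3% of those with a GC content under 35% and 1.95% of those at 60% and above. The same trend was seen over all regions, with 15.9% and 0.732% opening.

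**Figure D2:**
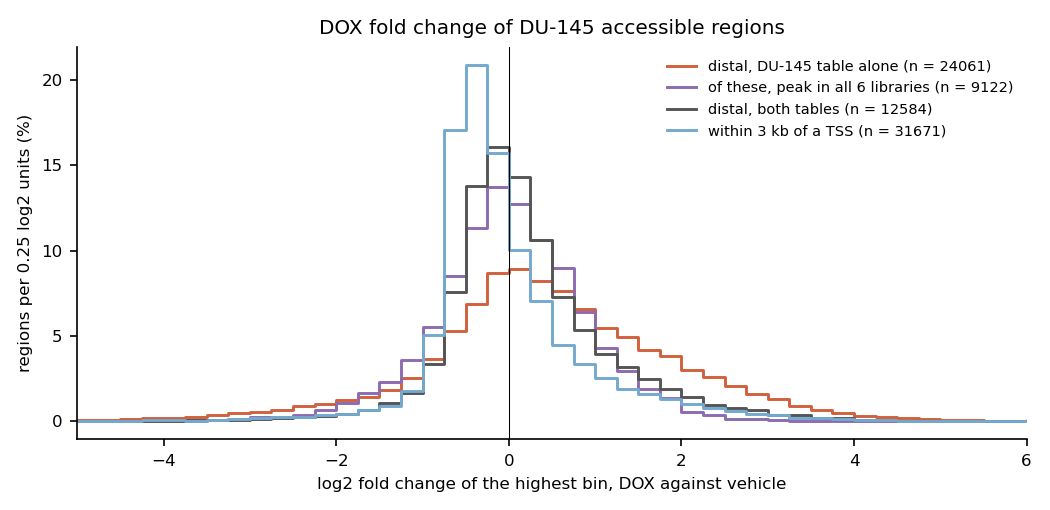
Distribution of the log2 fold change of the highest bin (DOX against vehicle, x axis) as percent of regions per 0.25 log2 units (y axis) in 4 classes of DU-145 regions. The DU-145-specific distal regions (orange) spread furthest to the right, with a median of 0.39, whereas those with a peak in all 6 libraries (purple) are centred at 0.01 and regions within 3 kb of a TSS (blue) at -0.23.

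The excess of opening lay mainly in members with a peak in some of the libraries. A region needed peaks in 3 libraries to enter the table, so that members with a peak in 1 condition alone were mostly higher there. Of the members, 4853 (20.2%) had a peak in all 3 DOX and no vehicle library, and 1967 of these opened. In contrast, 1175 (4.88%) had a peak in all 3 vehicle and no DOX library, and 659 of these closed. These counts describe the table and are no measure of a DOX effect. The 9122 members (37.9%) with a peak in all 6 libraries met the requirement in either condition alone, and their median change was 0.01, with 749 opening (8.21%) and 678 closing (7.43%). Under the same restriction, all regions gave 4.96% opening and 3.81% closing, with a median change of -0.20. The distal shared regions gave 6.96% and 3.49%, with a median of -0.04.

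The largest increases were at sites that were near 0 in vehicle cells. The region in intergenic sequence nearest to EFNA5 (295653 bp from its nearest TSS), which encodes an ephrin ligand, had a normalised coverage of 2.11, 1.17 and 0 in the vehicle and 94.4, 69.3 and 73.1 in the DOX libraries (log2 fold change 6.40, SE 0.39, adjusted p = 2.9e-24, edgeR). At the site in an intron of SLC35F4, a solute carrier family member, vehicle libraries gave 0, 1.6 and 0 and DOX libraries 74.1, 71.9 and 78.4. In LINC02227, with EBF1 (a B-cell transcription factor) as the nearest coding gene, the values were 1.98, 0.369 and 1.06 against 63.5, 52.0 and 44.8. All 3 had no peak in any vehicle and a peak in every DOX library. Fold changes against values this close to 0 depend on the prior count of the fit.

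The other 5 of the 8 largest increases were of the same kind. They were an intron of NPAS3, a neuronal transcription factor (vehicle 0.459 ± 0.455, DOX 50.8 ± 16.3, mean ± SD, n = 3), sites nearest to KIF4B (1.39 ± 0.600 and 59.3 ± 7.68) and PMFBP1 (1.57 ± 1.31 and 60.6 ± 12.1), and introns of the zinc transporter gene SLC39A11 (1.39 ± 1.06 and 55.9 ± 10.2) and of SH3BP5L (2.36 ± 0.659 and 61.1 ± 9.82). Their log2 fold changes were 4.85 to 5.73.

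The largest decreases led from a well covered site to near 0. In an intron of a gene that is not protein-coding, nearest to GALNT3, which encodes an enzyme that starts mucin-type O-glycosylation, coverage was 53.0, 50.8 and 44.4 in vehicle and 1.32, 0.0708 and 0.341 in DOX libraries (log2 fold change -6.92, SE 0.47, adjusted p = 6.1e-22, edgeR). The site nearest to PDHX, a pyruvate dehydrogenase complex component, had 63.3, 43.7 and 39.5 against 0.702, 0 and 0.444. The site 17810 bp from GUCA2B, which encodes uroguanylin, had 62.7, 59.3 and 64.7 against 1.94, 0.941 and 0.367. Vehicle libraries were far above DOX libraries at each of the 3 sites, and only the vehicle libraries had peaks there.

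A further 4 closing members had log2 fold changes of -5.23 to -5.32. They were sites nearest to SMG1, a kinase of nonsense-mediated decay (vehicle 51.8 ± 2.02, DOX 1.41 ± 1.34), ZNF462 (48.1 ± 4.34 and 1.27 ± 0.197), GOLPH3 (178 ± 28.4 and 4.90 ± 1.14) and LRIG2 (58.0 ± 7.08 and 1.57 ± 0.353). The GOLPH3 site, 21082 bp from that gene's TSS, had the highest vehicle coverage of the closing sites named here, with 207, 177 and 150 in the vehicle libraries. It kept a peak in 1 DOX library.

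**Figure D3:**
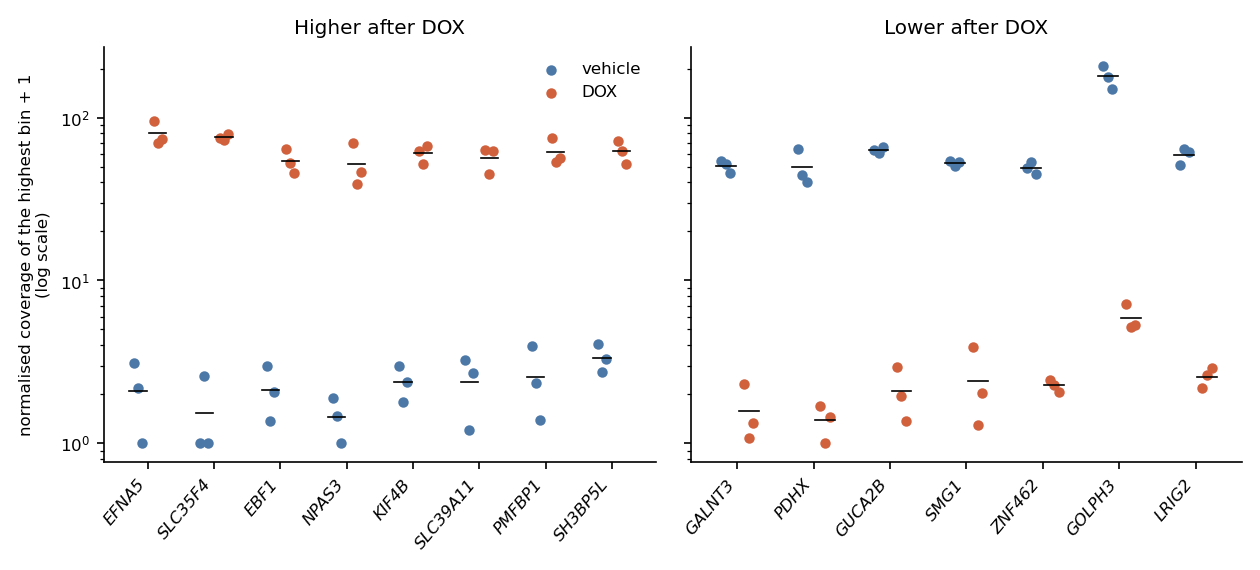
Normalised coverage of the highest bin plus 1 (log scale) in the 3 vehicle (blue) and 3 DOX (orange) libraries for the 8 opening and 7 closing members among those with the largest changes, named by the nearest coding gene, with group means as black lines. Vehicle values of the opening sites are at most 3.05 and DOX values of the closing sites are at most 6.21.

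The members with the highest coverage lost accessibility in part or did not pass the limits. The site 83814 bp from ARHGAP5, a GTPase-activating protein gene, had the highest coverage of all members, with 1178, 1104 and 1080 in vehicle and 673, 509 and 539 in DOX (log2 fold change -0.98, SE 0.10, adjusted p = 4.7e-14, edgeR), just short of the 2-fold limit in this bin. Values were lower in every DOX library also in an intron of NAV1 (684 ± 90.0 and 366 ± 50.9) and near DUSP6, an ERK phosphatase gene (493 ± 53.8 and 270 ± 46.7). Near ODC1, the gene for ornithine decarboxylase of polyamine synthesis, the values were 367, 295 and 284 against 340, 287 and 317 and overlapped (adjusted p = 0.981, edgeR). Near NUBPL, a gene for an assembly factor of respiratory complex I, DOX libraries were higher (225 ± 20.3 and 381 ± 57.1, log2 fold change 0.75). None of the 8 members with the highest coverage was called by its highest bin, although 6 other bins of the ARHGAP5 site and 8 bins of the NAV1 site closed and 7 bins of the NUBPL site opened.

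Some genes were nearest to many opening members, and the genes of this and the next paragraph were taken for such counts or by the lists, so that their shares are a description, beside 14.9% opening and 6.87% closing over all members. SOX9, a transcription factor of progenitor cells in many epithelia, was nearest to 24 members, of which 13 opened and none closed, and 23 had a log2 fold change above 0 (median 2.04). Of the 24, 11 had a peak in all 3 DOX and no vehicle library. Of the 7 with a peak in all 6 libraries, 4 opened. They reached from -905.9 kb to 290.3 kb from its start, in the direction of transcription. At 270.3 kb, coverage was 1.72, 4.66 and 1.86 in vehicle and 62.1, 50.3 and 44.7 in DOX (log2 fold change 3.97, SE 0.33, adjusted p = 2.7e-17, edgeR). At -696.7 kb it was 21.9, 14.8 and 14.2 against 122, 99.7 and 103. Closer to the gene, at 30.7 kb, the member with the highest coverage had 202, 205 and 180 against 134, 128 and 146 (log2 fold change -0.53), and the nearest opening member lay at -150.6 kb.

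SLC35F4 had 10 opening and no closing among 16 members, all in its introns. The log2 fold changes of the 10 ran from 1.41 to 6.35, and 8 of the 16 members had a peak in all 3 DOX and no vehicle library, as had 7 of the 12 of PPP2R3A and 3 of the 12 of TNFAIP3. DUSP10, which encodes a phosphatase of stress-activated kinases, had 8 opening of 26 members, PPP2R3A, a regulatory subunit of protein phosphatase 2A, 8 of 12, and TNFAIP3, an inhibitor of NF-κB signalling, 6 of 12, none with a closing member. DUSP10, PPP2R3A and TNFAIP3, as well as FTO, MAST4 and CFTR, were named after their values were seen. Of the 7921 coding genes that were nearest to a member, 142 had at least 3 opening and no closing members and 18 had at least 3 closing and no opening members.

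At other genes, opening and closing members alternated. FTO, an RNA demethylase gene with long introns, had 5 opening and 6 closing among 19 members, within 325.7 kb of its start. At 199.9 kb, coverage fell from 62.7, 47.0 and 51.4 to 3.67, 0.750 and 4.01 (log2 fold change -4.26, SE 0.32), and at 171.3 kb it rose from 6.45, 4.88 and 3.43 to 29.5, 31.5 and 21.3 (log2 fold change 2.51, SE 0.34). MAST4, a kinase gene, had 4 opening and 6 closing among 23. The closing members of FTO had vehicle means of 22.8 and above, and the opening ones of 17.3 and below. CFTR, the chloride channel gene, had 4 closing and no opening among 8 members, with log2 fold changes of -3.06 to -1.26. In all, 552 genes were nearest to at least 1 opening and 1 closing member.

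**Figure D4:**
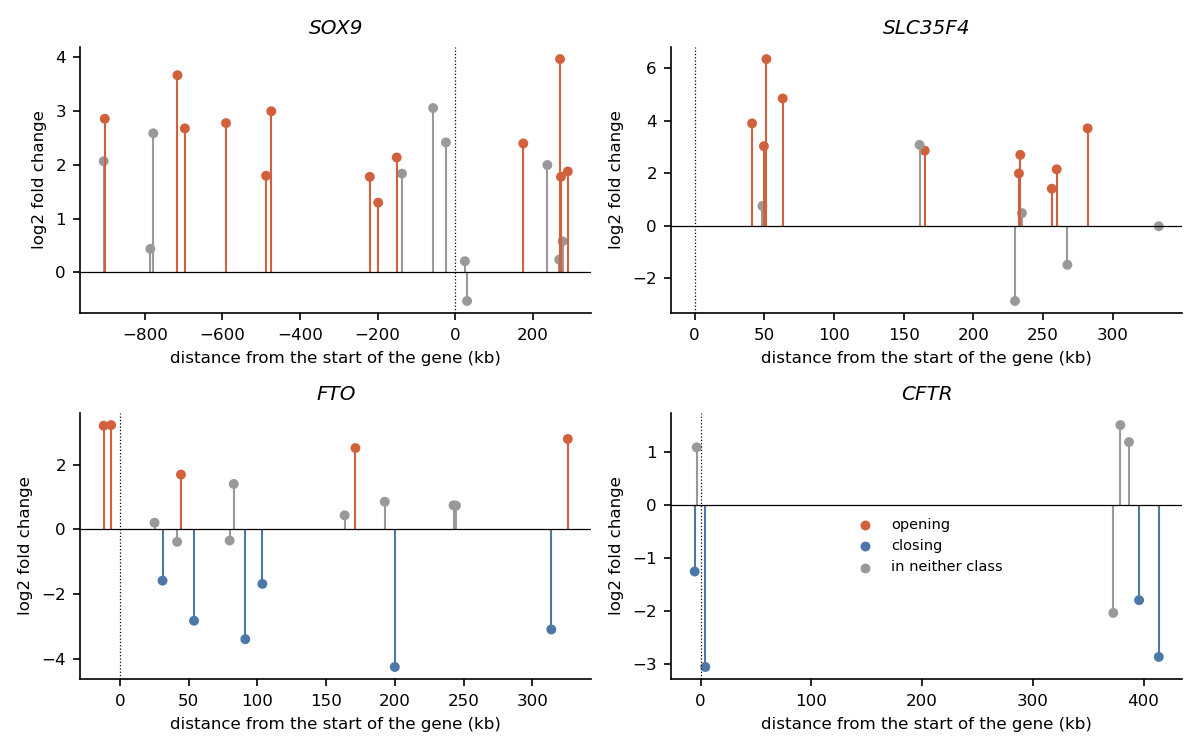
Log2 fold change of each DU-145-specific distal region (y axis) against its distance from the start of the gene in kb, in the direction of transcription (x axis), for 4 genes. Opening members are orange, closing members blue and the others grey. SOX9 and SLC35F4 hold 13 and 10 opening members and no closing one, FTO holds 5 opening and 6 closing members in alternation, and CFTR holds 4 closing members.

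Neighbouring members were compared in direction. Of 369 neighbouring pairs at most 12000 bp apart with both members called, 243 were both opening, 68 both closing and 58 opposite, with opening at 68.4% of all called members. Across 5606 such pairs the log2 fold changes of neighbours had a Pearson r of 0.26, which is across regions that share the 6 libraries and is no test. A total of 9499 members (39.5%) lay in clusters of at least 2 at that distance, and the called members were spread unevenly over the largest clusters. The largest, of 23 members in GRAMD1B, spanned 97200 bp and had none (median change 0.38, median coverage 7.31). Of 3 clusters at AKAP6, which encodes an anchor protein of protein kinase A, those with 19, 17 and 11 members had 2, 8 and 0 opening and 0, 0 and 1 closing members.

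The densest part of the genome was on chromosome 14. Between 30 and 36 Mb lay 342 of the 1295 members of that chromosome (26.4%), and its window from 32 to 33 Mb held 113, against a median of 9 over the 2354 windows of 1 Mb with a member. AKAP6 was the nearest coding gene of 75 members, the most of any gene. The 342 members had a median coverage of 10.7, and the peaks in members of the densest window had a median fold enrichment of 7.55 over the local background. Of the 8 members with the highest coverage, 4 also lay there, among them those near ARHGAP5, PRKD1 and NUBPL. In this stretch 47 members opened (13.7%) and 13 closed (3.8%), against 14.9% and 6.87% of all members, and the part that copy number has in these counts was not tested. By chromosome, the members made up between 13.6% of the regions (chromosome 19) and 45.8% (chromosome 18).

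The nearest genes were also grouped by 16 lists of pathway and lineage genes. In each list the share of opening members was between 12% and 20.4% and that of closing members between 0% and 11.2%, to be read against 14.9% and 6.87% over all members. The lineage factors had the highest opening share (33 of 162, with 9 closing), of which SOX9 gave 13. FOXA2, a pioneer factor of endoderm, had 15 members and none was called. NR2F2, named after its values were seen, also had 15, with 1 closing and no opening member. The member nearest to SOX4 (0.0794 to 4.10 in vehicle, 62.9 to 67.0 in DOX, log2 fold change 4.71, SE 0.33) had the smallest p of the opening ones. GATA3, a luminal factor, had the closing one with the smallest p (126, 122 and 93.7 against 10.9, 10.0 and 16.7, log2 fold change -3.18, SE 0.19).

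Genes of adhesion and guidance had many members. The integrin and laminin genes had 17 opening and 7 closing of 87. ITGA2, a collagen receptor subunit, had 5 opening of 9 (an intron site with 4.97, 5.09 and 1.59 in vehicle and 36.7 to 43.4 in DOX), and an intron of ITGA4 closed (58.1 ± 12.9 and 4.88 ± 1.14). Among the axon guidance genes, which include ephrins, semaphorins and slits, 38 opened and 13 closed of 206. SEMA5A had 6 opening and no closing of 23, and an intron of SLIT3 closed (91.7, 80.3 and 69.6 against 7.21, 2.89 and 4.38). The cell polarity genes had 15 opening and 8 closing of 95, with an opening site near DLG2 (2.47 ± 1.36 and 37.4 ± 5.19) and a closing intron site of PRKCI, the atypical protein kinase C iota (92.5 ± 1.68 and 23.4 ± 1.75).

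Signalling lists were mixed. The TGFβ and BMP genes had 22 opening and 15 closing of 180. BMP6 opened in an intron (13.1, 22.7 and 16.1 against 129, 114 and 117, log2 fold change 2.68, SE 0.19), SMAD6, an inhibitory SMAD, closed in an intron (72.5 ± 5.78 and 16.2 ± 2.23), and the receptor gene ACVR2A had 7 opening and 2 closing of 21. The Hippo genes had 12 opening and 9 closing of 80, the highest closing share of the lists (11.2%). They opened near SAV1, a scaffold of the Hippo kinases (8.74 ± 4.42 and 55.9 ± 7.41), and closed near the cadherin gene FAT1 (29.0 ± 2.51 and 2.57 ± 2.28). The effector genes YAP1 and TEAD1 had 2 closing members each, with 0 and 1 opening. The WNT genes had 15 opening and 5 closing of 80, with an opening site near TCF7L2 (9.62 ± 5.30 and 54.4 ± 9.13) and a closing intron site of the receptor ROR1 (31.5 ± 3.53 and 1.5 ± 0.51).

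For the ERBB genes, 8 members opened and none closed of 61. TGFA, an EGFR ligand, had the site with the smallest p (5.34, 5.65 and 8.27 against 117, 87.4 and 87.1, log2 fold change 3.89, SE 0.25), and the EGFR neighbourhood had 2 opening of 8. The NOTCH genes had 8 opening and 1 closing of 44. Of these, RBPJ, the DNA-binding partner of NOTCH, had 4 opening of 10 (first site 1.82 ± 0.549 and 33.1 ± 6.15), and a site near the ligand gene JAG1 closed (17.9 ± 5.77 and 2.12 ± 1.16). Without the second vehicle library the JAG1 site was not called (log2 fold change -2.91, adjusted p = 1.2e-05, edgeR).

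The genes of epithelial identity had 11 opening and 3 closing of 78 members. DSC3, a desmosomal cadherin gene, had 3 opening of 11, an intron site of TJP1, the gene for the tight junction protein ZO-1, opened (37.9 ± 9.95 and 103 ± 2.34), and one near F11R closed (55.4 ± 7.66 and 5.51 ± 3.99). CDH1 and GRHL2 had 2 members each and none was called. The keratin and squamous genes had 7 opening and 3 closing of 50, with KLF5 4 opening of 12 (first site 3.22 ± 1.48 and 31.8 ± 2.27) and an intron site of TP63, the basal cell factor, closing (37.2 ± 4.24 and 5.48 ± 2.37). The mesenchymal genes had 6 opening and 3 closing of 44. CDH2, the N-cadherin gene, was nearest to 17 members, with an opening site at 616755 bp (12.6 ± 2.36 and 64.1 ± 14) and a closing one at 825355 bp (35.4 ± 4.78 and 2.44 ± 2.53). The prostate luminal and androgen response genes had 3 opening and 1 closing of 19, the fewest members of any list. They opened near PMEPA1 (4.40 ± 2.42 and 21.2 ± 6.46) and closed near TRPM8, which encodes a cation channel (12.6, 8.47 and 15.4 against 0, 0.7 and 1.92). Without the second vehicle library the PMEPA1 site was not called (log2 fold change 1.89, adjusted p = 0.00085, edgeR), nor was the TRPM8 site without the third (-3.37, adjusted p = 2.1e-05, edgeR).

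The neuroendocrine lineage genes had 4 opening and 1 closing of 25, and the stem cell genes 6 and 3 of 41. SOX2, a pluripotency and neuroendocrine factor in both lists, had 3 opening and 1 closing of 11 (11.3 ± 5.73 and 52.1 ± 8.08 at the opening site, 24.5 ± 4.47 and 4.87 ± 3.25 at the closing site). Its closing site was not called without the third DOX library (log2 fold change -1.91, adjusted p = 1.9e-05, edgeR). The stem cell list also held the closing site in PVT1 at 425828 bp from MYC, with 34.4, 35.3 and 35.1 in vehicle and 0.0340, 0.962 and 1.26 in DOX (log2 fold change -5.64, SE 0.46, adjusted p = 1.2e-17, edgeR). MYC had 2 opening members besides. The genes of AP-1 factors themselves had 7 opening and 1 closing of 45, of which FOSL2 had 3 opening of 8 and JUN 1 of 4. BACH1, a repressor that binds AP-1-like elements, had an opening site (8.19 ± 2.66 and 57.6 ± 12.4) and a closing site (43.6 ± 2.60 and 5.02 ± 1.20).

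Short sequences differed between opening and closing members. The searched letters were TGACTCA for AP-1, ACATTCC for TEAD, AGGAAGT for ETS, CACTTNA for NKX2, TTGCNNAA for C/EBP, TGTTTAC for FOX, GTTAATNAT for HNF1, AGNNGGCGC for CTCF and CCCGCCC for KLF/SP factors, on both strands of the 200-bp window of each highest bin. The AP-1 letters were in 37.4% of the members, against 31.0% of the distal shared regions and 26.9% of all regions. They were in 43.7% of the opening, 14.9% of the closing and 38.2% of the other members. These shares count all members: 1967 of the 3581 opening ones had a peak in all 3 DOX and no vehicle library. Of the 1653 closing ones, 659 had a peak in all 3 vehicle and no DOX library. In members with a peak in all 6 libraries they were in 23.3% of the closing ones. Under that restriction, no other share of letters is given here. Of the AP-1 matches in members, 67.8% had their centre in the middle 100 bp. A match of letters is a description and not a bound site.

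The reverse order was found for NKX2 and C/EBP letters, again over all members. NKX2 letters were in 36% of the closing, 14.3% of the opening and 19.5% of the other members (13.8% of all regions), and C/EBP letters in 23%, 10.8% and 14.1% (11% of all regions). FOX letters (11.1%, 5.95% and 7.17%) and HNF1 letters (2.12%, 0.810% and 0.972%) had the same order at lower levels, and ETS (5.63%, 11% and 7.39%) and TEAD letters (5.14%, 9.10% and 6.15%) were more frequent in opening members. Opening and closing members had the same median GC content (44%). Within each of 5 classes of GC content, AP-1 letters were in 35.7% to 53.5% of the opening and in 12.4% to 16.6% of the closing members, and NKX2 letters in 10.4% to 16% and 26.9% to 39.4%. CTCF letters were in 1.42% of the members, against 5.51% of all regions, and KLF/SP letters in 1.70% against 10.7%. The latter letters are rich in GC, as are regions near TSSs.

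**Figure D5:**
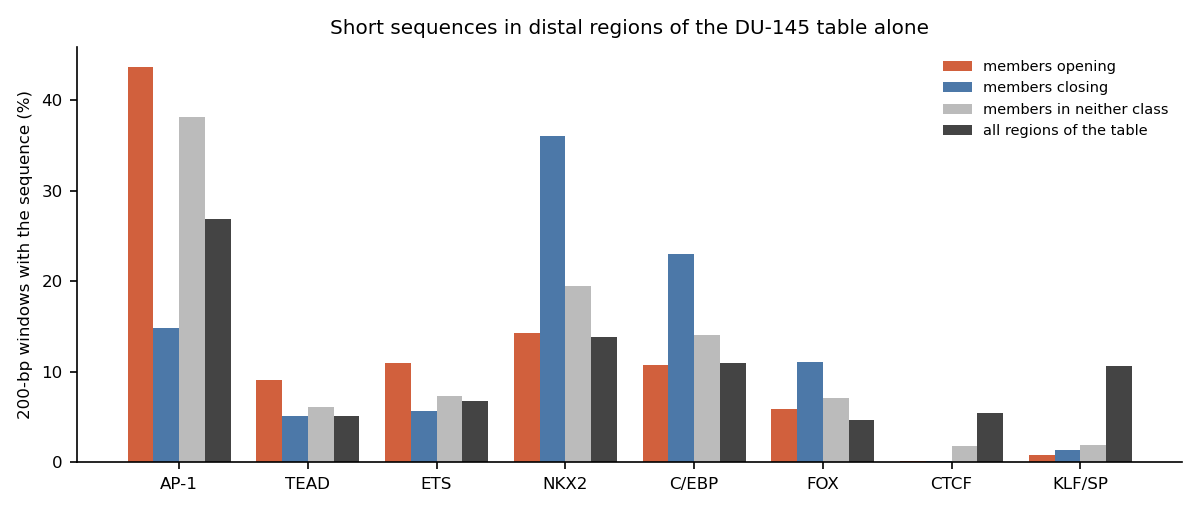
Percent of 200-bp windows (y axis, from 0) that hold each searched sequence in opening (orange), closing (blue) and other (light grey) DU-145-specific distal regions and in all regions of the table (dark grey). AP-1 letters are in 43.7% of the opening and 14.9% of the closing members, and NKX2 letters in 14.3% and 36%.

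With more AP-1 letters, more members opened and fewer closed, with members that had a peak in a single condition included. With no match, 13.4% opened and 9.33% closed (15066 members), with 1 match 16.5% and 2.93% (8201), and with at least 2 matches 26.8% and 0.882% (794). NKX2 letters went with fewer opening members at either level of AP-1. Of the 1729 members with both, 12.6% opened and 4.34% closed, of the 7266 with AP-1 letters alone 18.6% and 2.37%, and of the 3044 with NKX2 letters alone 9.72% and 17.1%.

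Coverage by these letters was also compared library by library, without any calls, over all members. Many members had a peak in DOX libraries alone, so that these values are given without a test. The mean coverage of members with AP-1 letters, relative to members without them, was 0.06, 0.04 and 0.04 on the log2 scale in the vehicle libraries. In the DOX libraries it was 0.35, 0.36 and 0.36, a difference of 0.31. In the same ratio, members with NKX2 letters stood at 0.38, 0.38 and 0.37 in vehicle and at 0.02, 0.01 and 0.01 in DOX, a difference of -0.36. For C/EBP letters the ratios were 0.19 to 0.20 and -0.10 to -0.08. All 6 families compared in this way (FOX, ETS and TEAD besides) separated the conditions without overlap. They were chosen after the shares above, which come from the same libraries, were seen.

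The conditions also stayed apart in members with a peak in every library. Among the 9122 with a peak in all 6 libraries, the AP-1 ratio was -0.02 to -0.00 in vehicle and 0.20 to 0.21 in DOX, and the NKX2 ratio 0.24 to 0.25 and 0.01 to 0.02. Distal shared regions under the same restriction had an AP-1 ratio of 0.42 to 0.44 in vehicle and of 0.55 to 0.58 in DOX. The difference between the members and these regions was -0.44, -0.45 and -0.44 in vehicle and -0.38, -0.35 and -0.35 in DOX, a change of 0.09. For the NKX2 ratio the difference was 0.01, 0.02 and 0.01 in vehicle and -0.10, -0.09 and -0.09 in DOX, a change of -0.11. Without the restriction these changes were 0.17 and -0.22. No test is given, since the letters were chosen from shares seen in the same libraries.

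Distance from a TSS or from a BT-549 peak went with the shares of opening and closing members only weakly. At high coverage both shares were larger than at low coverage. Opening members were 13.6% of those 3 to 10 kb from a TSS and 19.1% of the 718 beyond 100 kb, and closing members 6.77% and 6.27%. By the gap to the nearest BT-549 peak, 258 of 2105 opened up to 1 kb and 405 of 2683 beyond 50 kb. By coverage, 12.1% of the members at 25.4 and above closed and 17.6% opened, and 2.88% and 7.95% of those up to 9.24, at fewer fragments per site.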

How the data were processed

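ATAC-seq values of the 6 DU-145 libraries (3 vehicle, 3 DOX) were used, with the BT-549 table and peaks for the selection. The authors used bwa-mem (GRCh38) and Picard for duplicates, called peaks per replicate (MACS2 2.2.7.1 in the submitters' notes) and divided regions found in at least 3 replicates into 100-bp bins. The deposited bin values are estimated counts (mean fragment coverage, not normalised for depth). In the deposited peak files the authors give a fold enrichment and −log10 p- and q-values.

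Values were rounded and tested with edgeR 4.0.16 (R 4.3.3, quasi-likelihood, TMM, bins with a total of at least 10), as the values were not whole. The SE is the log2 fold change divided by the square root of F. The test was checked on simulated data. Regions were named by GENCODE 44. Named were the 8 opening and 8 closing members with the largest change (at least 3 called bins, coverage of at least 20, no overlap of conditions), the 8 of highest coverage, the densest clusters, and per list the genes with the most members and the opening and closing member with the smallest adjusted p. Members and lists were chosen with earlier results of these data known. Alternatives included DESeq2 1.42.0 and limma 3.58.1. No pair of replicates had the same value in more than 1.54% of member bins. Some items that the rule selects are not reported here.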

Additional observations from a re-analysis of the deposited data

How the results depend on the processing

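Against 3581 opening and 1653 closing members in the main fit, DESeq2 called 876 and 781 and limma-trend 1227 and 708. An adjusted p of 0.01 gave 6972 and 2687. With DESeq2 these were 3.64% and 3.25% of the members, against 2.65% and 2.17% of all regions. With limma-trend they were 5.10% and 2.94%, against 3.45% and 1.81%. At an adjusted p of 0.01 they were 29.0% and 11.2%, against 17.4% and 6.85%. Leaving out 1 library at a time gave 1676 to 3145 opening and 1241 to 1508 closing members and medians of 0.34 to 0.45. The lowest opening count was without the second vehicle library (6.97% of the members and 4.62% of all regions). It shared 1671 regions with the 3581, and the cause was not tested. Members with a peak in all 6 libraries, an alternative chosen after seeing the data, gave 749, 678 and a median of 0.01 (-0.20 over all regions with that restriction). In these members, AP-1 letters were in 23.3% of the closing ones, against 14.9% of all closing members. The median of 0.39 became 0.17 with limma-trend, 0.52 with library totals (0.14 over all regions) and 0.19 with the GC trend removed (-0.04 over all regions). With every other planned setting, both counts stayed within 1.5 times. The differences of the 3 library measures kept their direction under the planned settings. With members and distal shared regions restricted to a peak in all 6 libraries, chosen after seeing the data, the log2 ratio of 0.131 became -0.005 (exact permutation p = 0.9) and the share of coverage 1.04 percentage points. Without 1 library they ranged from 2.50 to 3.02 percentage points (share of coverage), 0.111 to 0.151 (log2 ratio) and 20.2 to 28.6 percentage points (under a peak).

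Libraries of the same number did not deviate together (correlations of -0.0379 to 0.0479), and the numbers do not pair them. With the replicate block, 3478 members opened and 1610 closed. The differences of the 3 library measures over all members (2.79, 0.131 and 23.8) are given without a test, as in the results above. No called region among the 53 named ones changed sign in 16 refits, of which the one with filterByExpr held 52 regions. The sites near PMEPA1, TRPM8, SOX2 (closing) and JAG1 lost their call with DESeq2 and with limma-trend, and each without at least 1 of the libraries. With limma-trend they fell short of the 2-fold limit alone (log2 fold changes 0.77, -0.66, -0.87 and -0.79). Their adjusted p was 1.1e-06 to 8.3e-06 (limma-trend).

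Depth limits the weak members: in 1 library up to 11.3% of member bins had a value under 1.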
